A study of Drosophila melanogaster with 6 samples.

Results

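Integrins are cell surface receptors, each made of 1 alpha and 1 beta subunit, that bind extracellular matrix outside the cell and the actin cytoskeleton inside it. The fly genome encodes few of them: the alpha subunits mew (alpha PS1), if (alpha PS2), scb (alpha PS3), ItgaPS4 and ItgaPS5, and the beta subunits mys (beta PS) and Itgbn (beta nu). In larval blood they are known from lamellocytes, the large flat cells that wrap around parasitoid eggs, where mys and ItgaPS4 serve as antibody markers, and from phagocytosis, where scb and Itgbn act as a receptor for dying cells and bacteria. All 7 listed genes were found on the array, as 9 of 18769 tested probe sets, each of which has that gene as its only symbol in the array annotation. The 7 genes are among 11982 with a probe set of their own. For mew and mys, which have 2 probe sets, the brighter one on average represents the gene and the dimmer one is given as a check. The members were listed by family, with earlier results of these data known.

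The samples were pools of circulating hemocytes of Drosophila melanogaster, taken from wandering larvae of instar 3 that grew at 29 °C, with 400 larvae in each pool and 1 array for each. All carried UAS-2xEGFP, a reporter that fluoresces green, and hml-Gal4, a driver active in hemocytes. The 3 Idh-R195H samples carried UAS-Idh-R195H in addition, and the 3 control samples did not. Idh-R195H is the fly form of an IDH1 mutant found in human tumours, and the design asks which genes change in hemocytes that express it. In these cell pools a change in the share of a cell type cannot be told apart from a change in RNA per cell.

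Idh and most plasmatocyte markers were bright on all arrays. The arrays also differed beyond integrins, between the genotypes and among control arrays, including in markers of other tissues. Idh itself was at 9967.2 ± 941 in Idh-R195H hemocytes and 4034.5 ± 245 in control hemocytes (intensity, SD, n = 3 each; adjusted p = 0.0319). Whether the higher Idh signal came from the added UAS-Idh-R195H was not tested. Of 8 markers of plasmatocytes, the main larval hemocyte, 7 were at intensities of at least 2273.5 on all 6 arrays, and crq, a scavenger receptor gene, was at 183.9 to 272.7 on Idh-R195H and 379.2 to 1161.4 on control arrays. The median intensity of an array was 76.6 to 83.7 for Idh-R195H and 80.5 to 107 for control. Pearson r of log2 values between arrays was 0.952 to 0.957 within Idh-R195H and 0.876 to 0.928 within control. Between the genotypes it was 0.889 to 0.913. The 3' to 5' intensity ratio of Act5C, which rises when RNA is broken or copied short, was 2.13 to 2.39 on Idh-R195H arrays and 3.72, 4.45 and 6.17 on control replicates 1, 2 and 3. Summed over 6 salivary gland markers the intensity was 990.8 to 4913.8 on Idh-R195H arrays, against 23143.3 on control replicate 1 and 220111 and 229873 on control replicates 2 and 3. The 4 measured fat body markers summed to 6295.8 to 55852.5 on Idh-R195H arrays and 44373.7 to 122474 on control arrays, and 8 midgut markers to 354.9 to 1302.7 and 1887.0 to 58683.6.

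The integrin subunits did not move as a block. In Idh-R195H hemocytes 3 of 7 rose, ItgaPS4, ItgaPS5 and Itgbn, each by at least 18.0-fold, where over all probe sets 1.9% passed upward (limma, adjusted p below 0.05). The other 4 did not pass on the probe set that represents each gene: mew and mys had higher intensities, and if and scb lower ones. The dimmer probe set of mew did pass upward. With probe sets of a mean under 100 left out, with an intensity trend and robust prior, or with arrays scaled on the hybridisation controls, mew and mys passed too, which made 5 of 7; in these fits 7.67%, 3.55% and 34% of all probe sets tested passed upward. None of the 7 passed downward, against 1.21% over all probe sets. At an unadjusted p below 0.05 in limma 1 was lower, if. The share of all probe sets at that unadjusted threshold was not counted, here or for the gene lists below. The arrays of the genotypes lay apart with Idh-R195H above in 5 of 7 genes and below in 1, while 12.6% and 16.2% of all probe sets did so. The median log2 fold change (Idh-R195H minus control) was 2.17 over the 7 members and -0.07 over all 11982 genes.

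**Figure D1:**
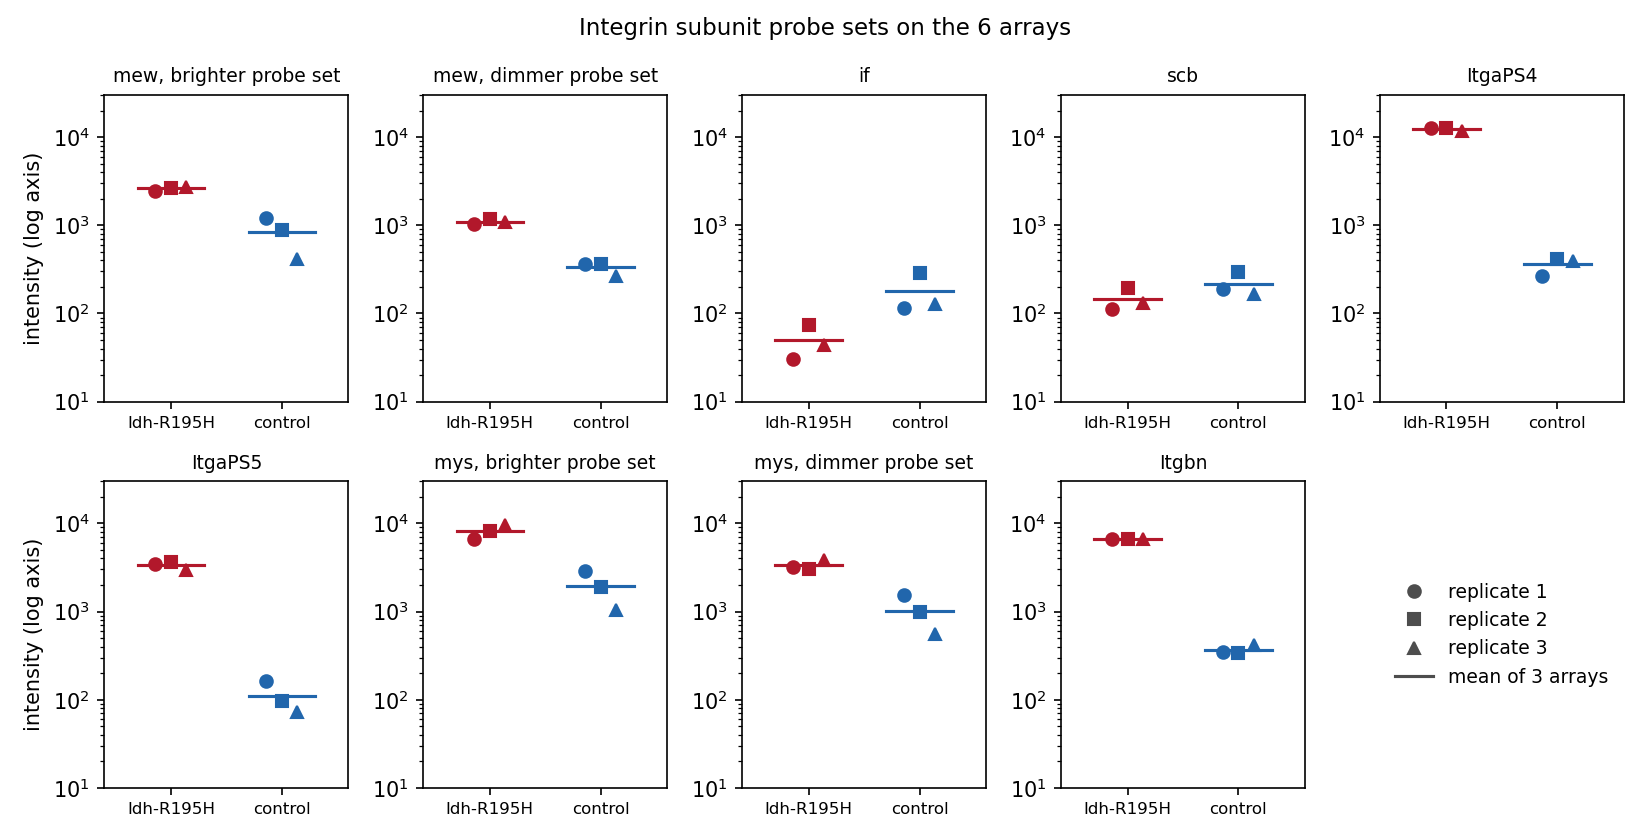
Intensity (log axis) of each of the 9 integrin probe sets on the 6 arrays, with Idh-R195H on the left and control on the right of each panel; points are arrays, shapes are replicate numbers and lines are means of 3 arrays. ItgaPS4, ItgaPS5 and Itgbn are far apart between the genotypes, mew and mys less so, and scb overlaps.

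ItgaPS4 (CG16827), an alpha subunit known mainly from lamellocytes, had intensities of 12755.7, 12724.1 and 11819.8 on the Idh-R195H arrays and of 264.9, 419.7 and 393.1 on the control arrays. The lowest Idh-R195H array was 28.2 times the highest control array, and the Idh-R195H arrays spanned a ratio of 1.08 among themselves. The log2 fold change was 5.14 (95% interval 4.52 to 5.75, adjusted p = 0.0028), the 13th largest increase of the 18769 probe sets. ItgaPS4 passed in 12 of 13 alternative settings, all but the one with the replicate number as a block.

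ItgaPS5 (CG5372), another alpha subunit found in lamellocytes, had intensities of 3426.5, 3643.1 and 2981.6 on the Idh-R195H arrays. On the control arrays it was at 162.1, 97.8 and 72.6, near the array medians of 80.5 to 107, so its fold depends on the background and the added constant. No Idh-R195H array came near a control array, and the ratio of lowest to highest was 18.4. The log2 fold change was 4.98 (95% interval 4.15 to 5.81, adjusted p = 0.0049). The call was kept in 11 of 13 alternative settings. It was lost with the replicate number as a block and without Idh-R195H replicate 2 (limma, adjusted p = 0.0549). In the fit without Idh-R195H replicate 2, 11 probe sets passed in all, among them ItgaPS4 and Itgbn.

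Itgbn (CG1762), the beta subunit known from phagocytic hemocytes and the midgut, gave the most even values of the family. Its intensities were 6569.3, 6687.7 and 6640.7 on the Idh-R195H arrays and 351.2, 335.2 and 421.5 on the control arrays. The means were 6632.6 ± 59.6 and 369.3 ± 45.9 (SD, n = 3 each), and the highest array was 1.02 times the lowest in Idh-R195H and 1.26 times in control. The log2 fold change was 4.17 (95% interval 3.68 to 4.66, adjusted p = 0.0028), an 18.0-fold difference. The call was kept in the same 12 of 13 settings as that of ItgaPS4.

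The main beta subunit mys (CG1560), the partner of the PS alpha subunits, had higher intensities in Idh-R195H hemocytes without passing the threshold. Its brighter probe set, whose name marks probes that may also match other sequences, was at 6691.8, 8173.5 and 9642.0 on the Idh-R195H arrays and at 2877.8, 1889.5 and 1053.5 on the control arrays. The groups did not overlap, and the log2 fold change was 2.17 (95% interval 1.16 to 3.19, adjusted p = 0.0567). Its other probe set, without that mark in its name, was at 3181.5, 3039.4 and 3847.1 in Idh-R195H and at 1531.5, 987.2 and 554.7 in control hemocytes, with a log2 fold change of 1.82 (adjusted p = 0.0818). Control replicate 1 was the highest control array on both probe sets and control replicate 3 the lowest. Without control replicate 1 the brighter probe set passed (log2 fold change 2.52, adjusted p = 0.0358).

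The laminin-binding alpha subunit mew (CG1771) showed much the same pattern as mys. Its brighter probe set was at 2442.5, 2677.1 and 2744.6 on the Idh-R195H arrays and at 1200.3, 886.1 and 414.3 on the control arrays. All Idh-R195H arrays were above all control arrays, while the control arrays differed from each other by 2.90-fold. The log2 fold change was 1.78 (95% interval 0.75 to 2.81, adjusted p = 0.0934). The dimmer probe set, at 1036.4, 1171.2 and 1100.4 in Idh-R195H and at 366.0, 365.4 and 266.5 in control hemocytes, gave nearly the same log2 fold change of 1.74 with a smaller error and passed (95% interval 1.19 to 2.29, adjusted p = 0.0216). The control arrays differed by 1.37-fold on the dimmer probe set. The call of the dimmer probe set was lost without any 1 of the 3 Idh-R195H arrays or without control replicate 2, with adjusted p from 0.0787 to 0.122. Among control arrays the Act5C ratio was lowest on replicate 1, where mew and mys were brightest, and highest on replicate 3, where they were dimmest. On the Idh-R195H arrays, where mew and mys were brighter than on any control array, it was lower still, at 2.13 to 2.39. The same ratio for the Gapdh control probe sets did not follow the order of the controls, at 13.1, 13.9 and 8.60 on replicates 1, 2 and 3. On Idh-R195H arrays the Gapdh ratio was 7.89 to 8.09. The part of RNA quality in the values of mew, mys and the other members was not tested.

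The alpha subunit if (CG9623), which binds ligands such as tiggrin and is prominent in muscle attachment, was dim and lower in Idh-R195H hemocytes. Its intensities were 30.7, 74.6 and 44.1 on the Idh-R195H arrays, below the median of each array, and 116.8, 287.2 and 128.7 on the control arrays. The groups did not overlap, and replicate 2 was the brightest array of either genotype. The log2 fold change was -1.78 (95% interval -2.98 to -0.58, adjusted p = 0.127), and it passed in 0 of 13 alternative settings, with adjusted p from 0.062 to 0.318. The 7 measured muscle markers summed to an intensity of 472.9 to 896.9 on Idh-R195H arrays and 1159.2 to 1565.8 on control arrays; their median log2 fold change was -0.78, with 2 positive and 5 negative. In limma 1 of the 7 passed downward, where 1.21% of all probe sets did: the tropomyosin gene Tm2, whose probe set was below the median of every array, so that the size of its change is uncertain. The part of muscle, salivary gland, fat body or midgut RNA in the values of if was not tested.

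The alpha subunit scb (CG8095), which with a beta partner takes part in phagocytosis and in epithelial and synaptic development, was the member whose arrays overlapped. Intensities were 112.0, 194.0 and 130.3 in Idh-R195H and 187.1, 293.8 and 164.9 in control hemocytes, again with replicate 2 highest in either genotype. The log2 fold change was -0.56 (95% interval -1.38 to 0.27, adjusted p = 0.433), and 0.41 when arrays were scaled on the hybridisation controls. An increase as large as that of ItgaPS4 or ItgaPS5 lies outside this interval.

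In the RefSeq gene table scb and ItgaPS4 are direct neighbours, and ItgaPS4 overlaps the next gene, Trpm, which encodes a cation channel. Despite this position their readouts differed. On each array the log2 ratio of ItgaPS4 to scb was 6.82, 6.03 and 6.49 in Idh-R195H and 0.50, 0.51 and 1.25 in control hemocytes. Levels of different probe sets are not comparable, but the ratio moved by 5.69 on the log2 scale between the genotypes (exact permutation test, two-sided, p = 0.1, the smallest that 3 arrays against 3 allow). Trpm was at 76.0, 103.3 and 91.7 in Idh-R195H and 67.2, 96.6 and 106.2 in control hemocytes, with a log2 fold change of 0.02 (95% interval -0.63 to 0.67, adjusted p = 0.98). Fs, on the other side of scb, was dim, with means of 33.9 ± 7.63 and 58.3 ± 6.53 (SD, n = 3 each; adjusted p = 0.166). ItgaPS5 lies elsewhere between Rrp4 and Pi3K59F, which had log2 fold changes of -0.05 and 0.13 (adjusted p = 0.952 and 0.895).

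**Figure D2:**
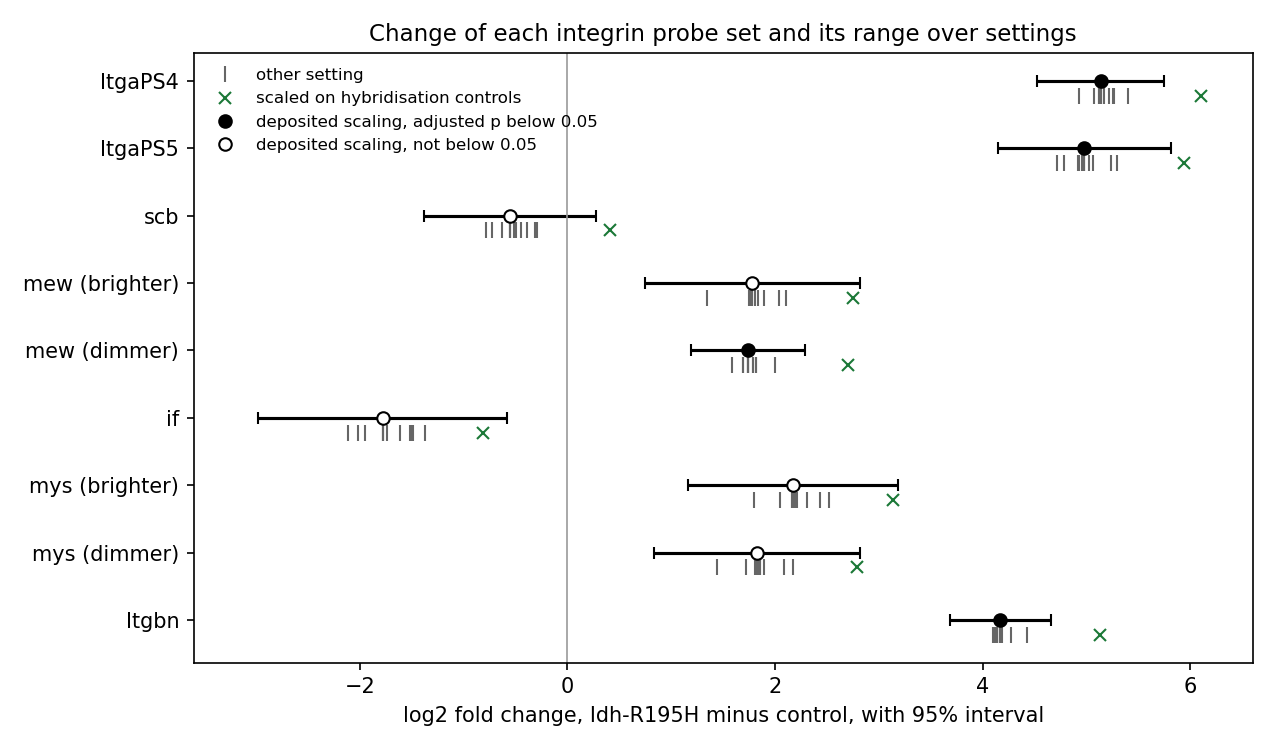
Log2 fold change (Idh-R195H minus control) of each integrin probe set with its 95% interval; filled circles have an adjusted p below 0.05, ticks under each circle are the other settings and the cross is the scaling on hybridisation controls. ItgaPS4, ItgaPS5 and Itgbn stay above 4 in every setting shown, and the scb values fall on both sides of 0.

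The members were also set against each other in 5 pairs by their log2 ratio on each array. The difference of a pair between the genotypes is that of its members' log2 fold changes given above, so it is no separate result. The ratio of ItgaPS5 to scb was 4.22 to 4.92 in Idh-R195H and -1.58 to -0.21 in control hemocytes, a difference of 5.54. That of mew to if was 5.15 to 6.27 in Idh-R195H and 1.62 to 3.35 in control hemocytes. Since if was dim and neither of the 2 probe sets used for this ratio passed the threshold, the size of that difference is uncertain. Between the beta subunits, the ratio of Itgbn to mys was -0.54 to -0.03 in Idh-R195H and -3.03 to -1.32 in control hemocytes, a difference of 2.00. In these 3 pairs, as for ItgaPS4 and scb, the genotypes did not overlap, with p = 0.1 each by the two-sided exact permutation test and 0.125 after Benjamini-Hochberg adjustment over the 5 pairs. The ratio of ItgaPS4 to ItgaPS5 was 1.80 to 1.99 in Idh-R195H and 0.70 to 2.42 in control hemocytes, and the ranges overlapped (difference 0.16, exact permutation p = 1). Its means were 1.90 ± 0.09 and 1.74 ± 0.91 (SD, n = 3 each).

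**Figure D3:**
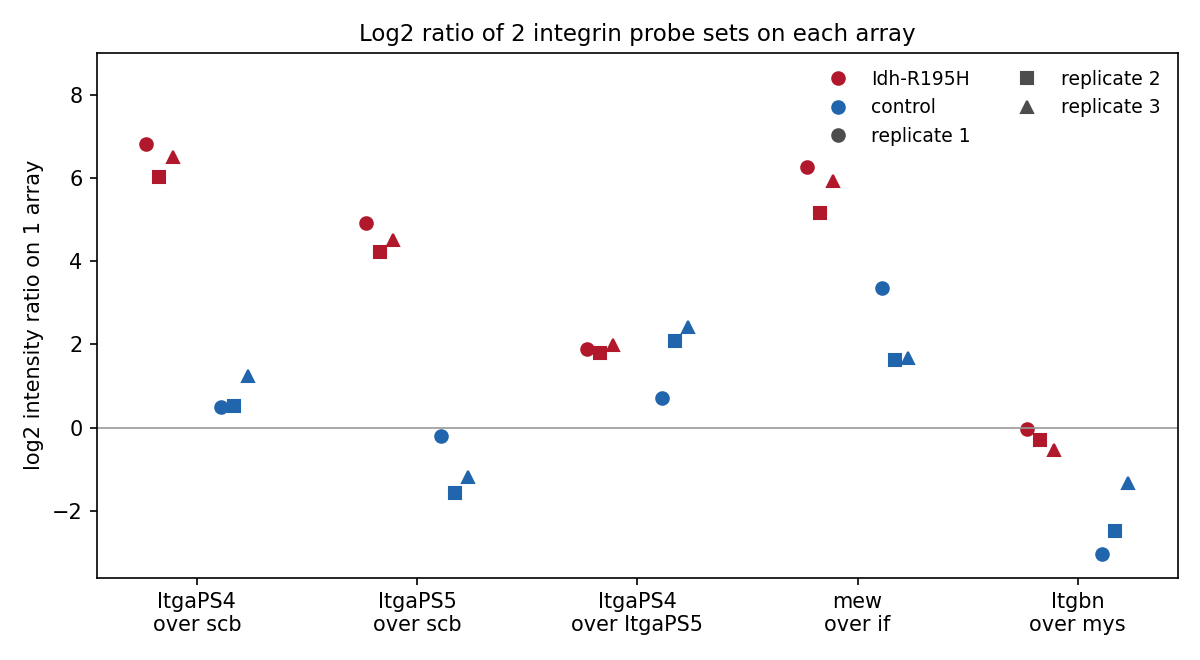
Log2 ratio of the intensities of 2 integrin probe sets on each array, for 5 pairs, with Idh-R195H points left of control points and shapes for replicate numbers. Only the difference between the genotypes can be read, since levels of different probe sets are not comparable; 4 pairs are apart and ItgaPS4 over ItgaPS5 overlaps.

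Inside the cell, integrins connect to actin through a complex of linker proteins. Of 16 listed genes of this complex 13 were measured; 5 rose and 0 fell, where 1.9% of all probe sets passed upward, and at an unadjusted p below 0.05 in limma 8 were higher and 1 lower. The median log2 fold change of these 13 genes was 1.14, against -0.07 over all genes. Zasp52, a scaffold at actin anchor sites, was at 5295.2, 5765.8 and 5256.0 in Idh-R195H and at 1024.7, 1060.5 and 671.5 in control hemocytes, and its log2 fold change of 2.59 was the largest of the list (adjusted p = 0.0103). Vinc, the actin-binding linker vinculin, had a log2 fold change of 2.19 (adjusted p = 0.0201). Ilk, parvin and stck, the PINCH adaptor, whose proteins form a complex beneath integrins, all rose, Ilk by 1.76, parvin by 1.42 and stck by 1.16 (log2 fold change; adjusted p = 0.0403, 0.0368 and 0.0499). Talin, encoded by rhea, which binds the beta subunit tail directly and activates the receptor, was at 15273.9, 15524.9 and 14702.7 in Idh-R195H and at 6149.6, 4085.9 and 2364.2 in control hemocytes, with a log2 fold change of 1.96 (adjusted p = 0.0582). The adaptor Pax (1.14), the kindlin Fit2 (0.81) and Zyx (-0.64), a zyxin at actin cables, did not pass either. Calls over the whole array varied with single arrays, and these did too. None of the 13 passed in limma without Idh-R195H replicate 1, 2 or 3, where 0.346%, 0.0586% and 0.25% of all probe sets passed upward. Without control replicates 1, 2 and 3 it was 6, 1 and 2 genes, where 2.89%, 0.65% and 1.08% passed. At an unadjusted p below 0.05 at least 7 were higher in each of these 6 fits, but the share of all probe sets at that threshold was not counted. As with mew and mys, control replicate 1 had the highest intensity of the controls and control replicate 3 the lowest for rhea, Vinc, Ilk, parvin and stck. The order was not particular to these genes. ItgaPS5, the matrix gene Tig and the plasmatocyte marker crq had it too, while ItgaPS4, Itgbn and Zasp52 did not.

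Outside the cell, the matrix proteins that integrins bind showed no common direction. All 14 listed genes were measured; log2 fold changes were positive for 7 and negative for 7 (median 0.03), and 1 gene passed in each direction (5 at an unadjusted p below 0.05 in limma), where 1.9% of all probe sets passed upward and 1.21% downward. When arrays were scaled on the hybridisation controls, 7 of the 14 passed upward, where 34% of all probe sets did, and 0 downward (1 at an unadjusted p below 0.05 in limma), where 0.932% did. The laminin alpha chain wb, a ligand of alpha PS2, rose: its intensities were 931.1, 1005.7 and 908.3 in Idh-R195H and 406.6, 285.7 and 301.6 in control hemocytes (log2 fold change 1.53, adjusted p = 0.0307). SPARC, a collagen-binding basement membrane protein, fell, at 9246.1, 8690.9 and 10230.2 in Idh-R195H and 29282.1, 23426.4 and 24512.9 in control hemocytes (log2 fold change -1.45, adjusted p = 0.0277). Both calls were lost without any 1 of the Idh-R195H arrays, without control replicate 2 or 3, and after quantile normalization or centring on array medians. The other members with the largest differences, none past the threshold, were the perlecan gene trol (-2.05), mspo (-1.59), which encodes a secreted spondin, papilin, encoded by Ppn (1.00), and the nidogen gene Ndg (0.41). Ndg was below the median of every array, and its arrays overlapped between the genotypes. The alpha PS2 ligand tiggrin, encoded by Tig, was at 2507.5, 2333.0 and 2013.4 in Idh-R195H and 4181.6, 2581.7 and 1997.4 in control hemocytes, which overlap.

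**Figure D4:**
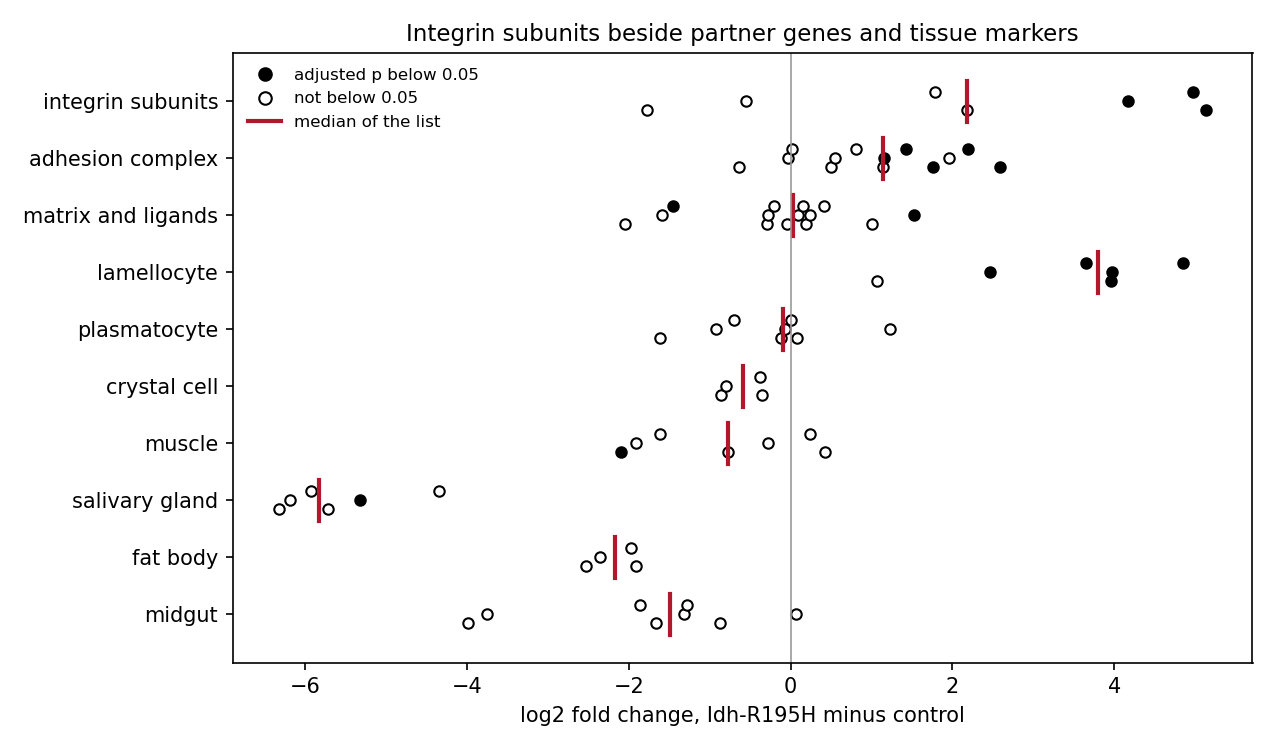
Log2 fold change (Idh-R195H minus control) of the 7 integrin subunits, of partner genes and of tissue marker genes, 1 point a gene; filled points have an adjusted p below 0.05 and red bars are list medians. The integrin subunits spread from -1.78 to 5.14, the lamellocyte markers lie to the right and the salivary gland, fat body and midgut markers mostly to the left.

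The integrins that rose moved with the lamellocyte markers. Of 6 measured markers other than integrins (atilla, PPO3, mdu, cher, msn and TpnC73F) 5 rose, where 1.9% of all probe sets passed upward, and the median log2 fold change was 3.80. Their summed intensity was 56771.2 to 67181.7 on Idh-R195H arrays and 5568.3 to 6743.3 on control arrays, and none was near 0 on any array. The 8 plasmatocyte markers had a median of -0.10 with none past the threshold, although 3 were below an unadjusted p of 0.05 in limma. The 4 crystal cell markers had a median of -0.59 with none past the threshold, and 2 were below an unadjusted p of 0.05. For markers of other tissues, median log2 fold changes were -5.83 for salivary gland, -2.17 for fat body and -1.49 for midgut. Past the threshold downward were 1 of 6, none of 4 and none of 8, where 1.21% of all probe sets passed; at an unadjusted p below 0.05 in limma 6, 1 and 5 were lower. All 6 salivary gland markers had non-overlapping arrays, lower in Idh-R195H, where 16.2% of all probe sets did so. How far a change in cell types or tissues carries the integrin values was not tested.

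For each member the 2 genes with the most similar profile were found among 7951 genes with a mean intensity of at least 100, by Pearson r of log2 values over the 6 arrays. The arrays fall into 2 genotypes, so a gene with a large difference in the same direction has an r near 1, and these values only describe. The genes nearest to ItgaPS4 were Spn88Eb, a serpin, and sano (r = 0.9992 for both). Nearest to ItgaPS5 were the sorting nexin Snx17 (r = 0.9995), at 12713.5 ± 113 in Idh-R195H and 2804.1 ± 556 in control hemocytes, and RapGAP1, a GTPase-activating protein for Rap1 (r = 0.9989), at 6823.3 ± 150 and 526.1 ± 198 (SD, n = 3 each). Itgbn was most like aru and CG31769 (r = 0.9996 and 0.9989), and CG31769 was at 2025.9 ± 155 in Idh-R195H and 81.4 ± 7.00 in control hemocytes (SD, n = 3 each). The profile of mys was nearest to Arfip and fzr (r = 0.9977 and 0.9975), and that of mew to the kinase gene wnd and to nuf (r = 0.9993 and 0.9988). These 4 genes were picked for their likeness to mew and mys, so the shared direction is no separate result. Their arrays did not overlap, higher in Idh-R195H, as for 12.6% of all probe sets, and none of them passed the threshold. The gene nearest to if was Alp1, an alkaline phosphatase gene (r = 0.987) that was below the median of each Idh-R195H array, followed by CG5966 (r = 0.984). The nearest to scb were CG17124 and alpha-Est7 (r = 0.988 and 0.980), whose arrays overlapped between the genotypes.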

How the data were processed

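The authors deposited 1 linear intensity per probe set and 1-colour array. Per the submitters' processing notes Partek 6.0 was used; how probes were summarised, and on which genome build, is not given in the sources used here. From the values, each array had been scaled by the authors to the same mean after leaving out 2% at each end (500.0). No detection call was used. Here 183 array controls were left out and log2(intensity + 1) of 18769 probe sets was fitted in limma 3.58.1 (R 4.3.3) on group, two-sided, with Benjamini-Hochberg adjustment over all of them and a threshold of 0.05. Folds of dim genes on this scale depend on the added constant, so their size is uncertain. Gene names came from the platform annotation, matched by gene identifier to RefSeq (Release 6) for 13544 of 13647 single-gene probe sets. The steps were tested on simulated data. No column of sample values was left out.

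Named genes are the 7 members, the genes of the adhesion and matrix lists past the threshold with up to 4 others of the largest change, and the 2 genes most like each member. Tig, crq, Tm2, Trpm and the other genes next to a member were added after their values were seen. Members and lists were chosen with earlier results of these data known. Marker lists for wing disc, trachea, neurons and blood progenitors were also measured: 0 of 4, 0 of 3, 0 of 3 and 1 of 5 genes passed. Over all probe sets 1.9% passed upward and 1.21% downward. The gene that passed was dim and higher in Idh-R195H, at a mean of 89.1 against 40.6 in control hemocytes. At an unadjusted p below 0.05 in limma the counts were 0, 2, 1 and 2. Of the 2 trachea genes 1 was higher and 1 lower, and the others were higher. Of 6 genes in a cuticle list, 1 shared a probe set and 5 symbols were not found in the annotation table, so that list was not used. The samples are called biological replicates in the labels.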

Additional observations from a re-analysis of the deposited data

How the results depend on the processing

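The directions of the 7 members held in every setting tried, except for scb. It turned to 0.41 when arrays were scaled on 18 hybridisation control probe sets. These controls had a mean log2 intensity of 9.97 to 10.14 on Idh-R195H arrays and 10.98 to 11.12 on control arrays. The scaling moved the median log2 fold change of all probe sets from -0.11 to 0.86. Quantile normalization and centring on array medians moved it to 0.02 and 0.15. Of the members, 5 passed upward with hybridisation scaling, without probe sets of a mean under 100, and with an intensity trend and robust prior. In these fits 34%, 7.67% and 3.55% of all probe sets tested passed upward. With a constant of 16 and without control replicate 1, 4 members passed, where 2.71% and 2.89% did. Without Idh-R195H replicate 2 it was 2 members, where 0.0586% did. With the replicate number as a block, 0 members, 0 adhesion genes and 0 matrix genes passed in limma (at an unadjusted p below 0.05, 5 members were higher and 1 lower, 8 adhesion genes higher, and 2 matrix genes higher and 3 lower), and 0 of all probe sets; the adjusted p of ItgaPS4, ItgaPS5 and Itgbn was 0.0947. Same-numbered arrays shared no common deviation (r of 0.03, 0.02 and -0.07 across probe sets), so the numbers are not taken as pairs.

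Adhesion genes passing upward numbered 11 with hybridisation scaling and 2 after median centring, where 34% and 1.69% of all probe sets did. Without 1 array each it was 0 to 6, where 0.0586% to 2.89% did. Downward, 1 adhesion gene passed without dim probe sets and 1 with the trend, where 6.15% and 3.12% did. Matrix genes passing upward numbered 7 with hybridisation scaling and 2 with the trend, where 34% and 3.55% of all probe sets did. After quantile normalization or median centring it was 0, where 1.75% and 1.69% did, and without 1 array 0 to 2. Matrix genes passing downward numbered 2 without dim probe sets and 2 with the trend. With quantile normalization, median centring and hybridisation scaling it was 0, where 0.874%, 0.591% and 0.932% did. Without 1 array it was 0 to 1, where 0% to 1.74% did. Over all probe sets 584 passed as reported, 429 to 1297 with quantile normalization, median centring, the constant of 16, the filter or the prior, 6548 with hybridisation scaling, and 11 to 870 without 1 array. Where a setting changed a call, the cause was not tested. The number of arrays and the missing detection calls limit what can be said of if, scb and the control values of ItgaPS5.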
